A study of Homo sapiens with 12 samples.

Results

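Olfactory receptor genes lie in tandem blocks, and 3 such blocks were examined here for histone marks of active chromatin in HepG2 cells. The blocks were set by position in GRCh37 alone, as chr11:55000000-56600000 (bands 11q11 and q12.1), chr1:247600000-248900000 (band 1q44) and chr11:123600000-124400000 (bands 11q24.1 and q24.2). Together they span 3.70 Mb. Peaks overlapping a block by at least 1 bp were taken as members. They numbered 20 of the 273551 peaks listed on chromosomes 1 to 22 and X, comprising 1 of 66513 H3K27ac peaks, 15 of 182592 H3K4me1 peaks and 4 of 24446 H3K4me3 peaks.

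HepG2 is an established human liver cancer line, and the cells were untreated. Chromatin immunoprecipitation with sequencing was run on 12 libraries in 4 groups of 3, with antibodies to H3K27ac, H3K4me1 and H3K4me3 and a control titled input whose antibody label names an anti-mouse IgG. The deposited lists hold 1 set of peaks per mark from pooled replicates. No spread between cultures could be computed, so no difference given here was tested against it. Intervals cover counting error only and treat peaks as independent, and the depth of the libraries is unknown.

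Olfactory receptors are odorant-binding receptors coupled to G proteins, and they form the largest gene family of mammals. A sensory neuron of the nose expresses a single receptor gene from a single allele, while the other copies stay repressed in compact chromatin. Outside the nose most members are not expressed, although some have been found in other tissues. H3K4me3 marks promoters that are active or poised, H3K4me1 marks enhancers and promoter flanks, and H3K27ac marks promoters and enhancers in use. Marks of repressed chromatin and RNA were not analysed here, so whether the blocks are silent was not measured. The 11q24 block held peaks of all 3 active marks, and only the 11q11-q12 block held no listed peak of any mark.

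The genes of such blocks were taken from RefSeq (GRCh38.p14), by gene order and symbol only, since positions of that build cannot be set on GRCh37 peaks. The longest run of olfactory receptor genes on chromosome 11 has 106 members, of which 46 are protein-coding and 60 are pseudogenes. Its coding members come mainly from family 5 (24 genes), family 8 (11) and family 4 (8), and TRIM51 is the other coding gene within it. The last run on chromosome 1 has 56 members, 43 of them coding, with 33 from family 2. It lies between NLRP3, a sensor of the inflammasome, and LYPD8, and holds the coding genes GCSAML and TRIM58. The last run on chromosome 11 has 44 members, 22 of them coding, with 11 from family 8 and 7 from family 10. It lies between ZNF202, a zinc finger repressor of lipid genes, and PANX3, a pannexin channel gene. It also holds TMEM225 and VWA5A, the latter with 17 olfactory receptor genes before it and 27 after it. These runs were picked as the longest or the last of their chromosomes, so their order cannot show that they correspond to the 3 blocks. Which of their genes lie inside a block was not matched.

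Sequences upstream of these genes are shown because H3K4me3 is best known at promoters rich in CpG dinucleotides. The first 3 are the coding olfactory receptor genes with the median G + C content of the longest chromosome 11 run, the last chromosome 1 run and the last chromosome 11 run. OR2L13 is the olfactory receptor gene with the most CpG dinucleotides, and ZNF202 is the coding gene just before the last chromosome 11 run. Each is the 250 bases before the RefSeq start, 5′ to 3′ on the gene's own strand (plus for OR2L2 and OR2L13, minus for the others), from GRCh38.p14, with CpG in capitals.
OR5T2: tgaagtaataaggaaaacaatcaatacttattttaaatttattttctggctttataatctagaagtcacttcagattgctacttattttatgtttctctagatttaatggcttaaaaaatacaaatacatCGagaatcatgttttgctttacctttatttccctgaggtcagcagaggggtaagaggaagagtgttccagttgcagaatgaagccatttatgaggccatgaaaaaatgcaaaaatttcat
OR2L2: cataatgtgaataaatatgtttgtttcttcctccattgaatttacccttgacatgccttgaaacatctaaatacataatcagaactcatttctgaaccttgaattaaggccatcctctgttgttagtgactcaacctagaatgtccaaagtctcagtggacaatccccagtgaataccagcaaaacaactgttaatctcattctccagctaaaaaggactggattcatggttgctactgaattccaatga
OR8B8: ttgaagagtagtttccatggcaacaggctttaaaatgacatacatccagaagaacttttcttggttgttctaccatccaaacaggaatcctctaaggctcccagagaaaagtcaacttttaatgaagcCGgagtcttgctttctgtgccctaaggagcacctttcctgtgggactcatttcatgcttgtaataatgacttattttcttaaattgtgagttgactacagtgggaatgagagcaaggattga
OR2L13: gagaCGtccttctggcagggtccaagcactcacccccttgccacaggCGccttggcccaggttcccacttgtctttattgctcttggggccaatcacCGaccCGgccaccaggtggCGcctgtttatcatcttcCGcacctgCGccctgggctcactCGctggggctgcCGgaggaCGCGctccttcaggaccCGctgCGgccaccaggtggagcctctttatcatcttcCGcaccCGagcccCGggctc
ZNF202: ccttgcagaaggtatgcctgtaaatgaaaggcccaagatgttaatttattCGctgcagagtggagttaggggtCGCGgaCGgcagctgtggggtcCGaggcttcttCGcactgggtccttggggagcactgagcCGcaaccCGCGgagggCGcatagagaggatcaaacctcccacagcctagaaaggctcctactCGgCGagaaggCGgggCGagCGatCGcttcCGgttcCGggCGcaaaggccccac

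OR5T2 and OR8B8 each have 1 CpG and OR2L2 has 0, against 16 in OR2L13 and 19 in ZNF202. Upstream sequence was found for 95 of the 111 coding olfactory receptor genes of the 3 runs. The median CpG number was 1 (interquartile range 0 to 2), and the median G + C content was 36.0% (31.2 to 39.0). For all coding genes with a sequence (15843), the medians were 17 CpG (6 to 26) and 62.4% G + C (52.8 to 70.4). At least 10 CpG were present in 1 of the 95 olfactory receptor sequences (1.05%), which was OR2L13, and in 68.6% of all coding genes. The motif TATAAA, on either strand, was found in 34 of the 95 (35.8%) and in 9.23% of all coding genes, and a match is a description of the letters only. TATAAA holds only A and T, and no allowance was made for the lower G + C content of the olfactory receptor sequences. The runs differed in G + C content, with medians of 31.2%, 37.2% and 40.4% in the order given above, and each had a median of 1 CpG. Identity was taken from the edit distance between the 250 bases of each pair, aligned end to end. The closest pair within a run was OR2L5 and OR2L3, at 78.8%, and 0 pairs reached 95%. A shift between annotated starts lowers this value, and genes without a sequence were not compared, so near-identical upstream DNA may have been missed. Among the other coding genes in or beside the runs, TRIM58 had 12 CpG and NLRP3 had 3.

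**Figure D1:**
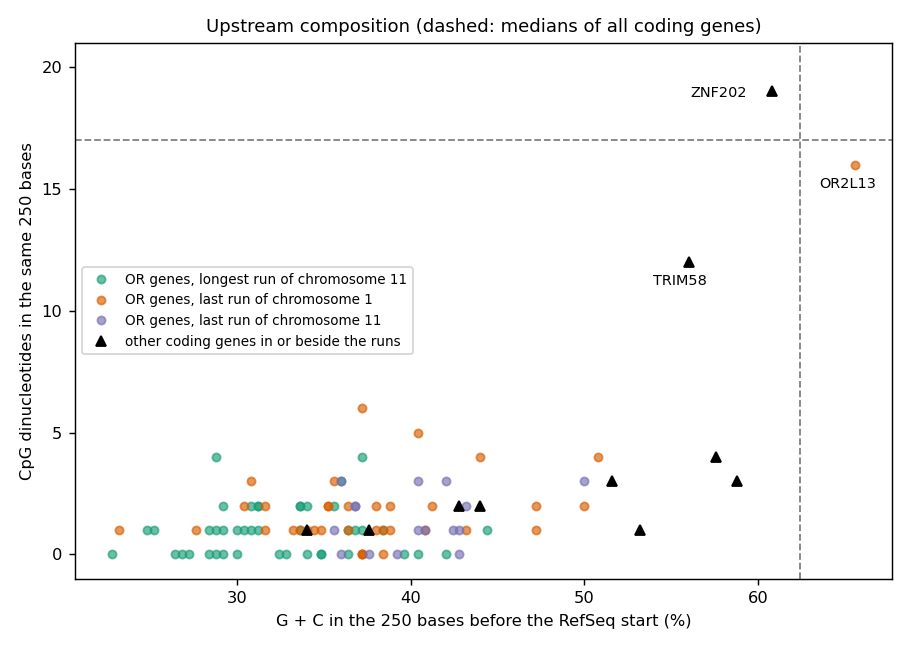
Number of CpG dinucleotides (vertical axis) against G + C content in percent (horizontal axis) in the 250 bases before the RefSeq start, for 95 coding olfactory receptor (OR) genes of the 3 runs (circles) and for other coding genes in or beside them (triangles). Dashed lines are the medians of all coding genes, 17 CpG and 62.4% G + C; OR2L13 is the only circle with 10 or more CpG.

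The 3 blocks together carried far fewer peaks per Mb than the rest of chromosomes 1 and 11. The H3K27ac density was 0.270 peaks per Mb in the blocks and 25.4 in the rest, a ratio of 0.0106 (95% exact interval 0.000270 to 0.0593). The H3K4me1 density was 4.05 peaks per Mb against 70.2, a ratio of 0.0578 (0.0323 to 0.0953). For H3K4me3 the values were 1.08 and 9.49 peaks per Mb, a ratio of 0.114 (0.0310 to 0.292). At the density of the rest, the same 3.70 Mb would hold 93.9 H3K27ac, 259.7 H3K4me1 and 35.1 H3K4me3 peaks. By length, H3K27ac peaks covered 0.0439% of the blocks and 3.51% of the rest, H3K4me1 peaks 0.251% and 7.75%, and H3K4me3 peaks 0.146% and 1.80%. Members lay partly at the block edges. With 100 kb taken off both sides of each block, 0 H3K27ac, 8 H3K4me1 and 1 H3K4me3 peaks were left, and the ratios were 0, 0.0368 and 0.0340. With the stronger 50% of each list by signal value, the H3K4me3 ratio was 0.0546 and the H3K27ac ratio 0.0211. With peaks of a list within 1000 bp joined, the H3K27ac ratio was 0.0162.

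**Figure D2:**
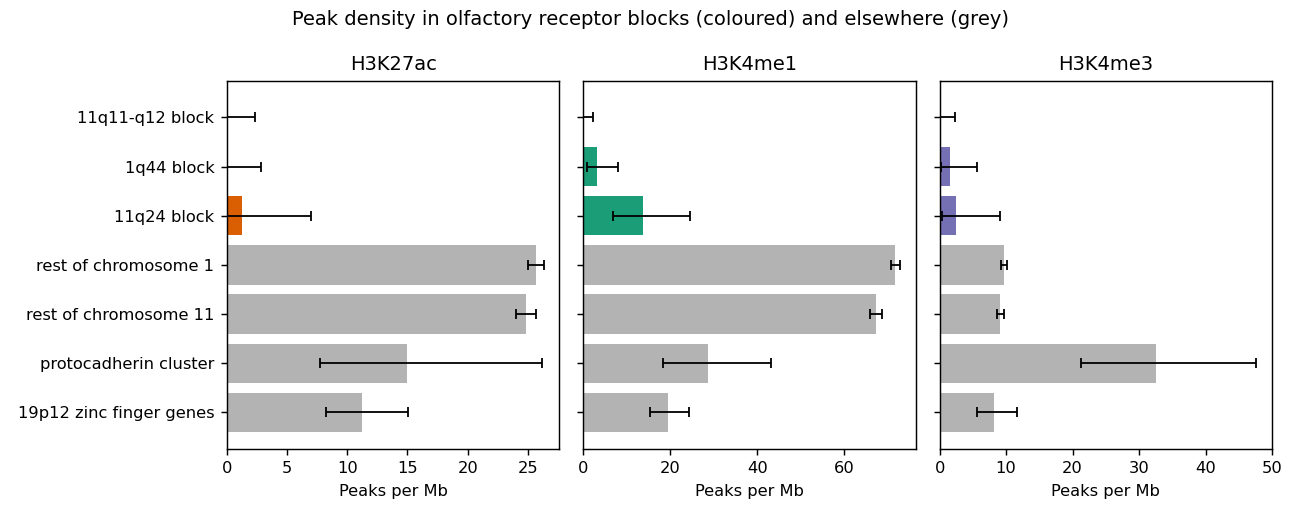
Peaks per Mb (horizontal axes) of each mark in the 3 olfactory receptor blocks (coloured bars), in the rest of their chromosomes and in 2 other tandem gene families (grey bars), with exact 95% Poisson intervals for counting error. The 11q11-q12 block has no bar in any panel because it held 0 peaks, and the 11q24 block is the highest of the 3 blocks for each mark.

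The 3 blocks were not alike. In the 11q11-q12 block, which is 1.60 Mb long, no peak of any mark was listed. The rest of chromosome 11 had 24.8 H3K27ac, 67.3 H3K4me1 and 9.15 H3K4me3 peaks per Mb. Taking 3 counts per block as the limit that a count of 0 allows, or 1.88 peaks per Mb, the block was at least 13.2-fold lower for H3K27ac, 35.9-fold lower for H3K4me1 and 4.88-fold lower for H3K4me3. The exact 95% interval of the ratio, used for the other blocks, is wider than this limit and ended at 0.0929, 0.0343 and 0.252 for the 3 marks.

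The 1q44 block, 1.3 Mb long and 0.351 Mb from the end of chromosome 1, held 0 H3K27ac, 4 H3K4me1 and 2 H3K4me3 peaks. The rest of chromosome 1 had 25.7, 71.7 and 9.67 peaks per Mb of these marks. H3K27ac was thus at least 11.1-fold lower, at the same limit of 3 counts, here 2.31 peaks per Mb, and the exact interval of its ratio ended at 0.111. The ratio of block to rest was 0.0429 (0.0117 to 0.110) for H3K4me1 and 0.159 (0.0193 to 0.575) for H3K4me3.

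The 11q24 block, 0.800 Mb long, was the best marked. It held 1 H3K27ac, 11 H3K4me1 and 2 H3K4me3 peaks, or 1.25, 13.8 and 2.50 peaks per Mb. The ratios to the rest of chromosome 11 were 0.0503 (0.00127 to 0.281), 0.204 (0.102 to 0.366) and 0.273 (0.0331 to 0.989). The last interval ended just below 1 and reached past it under 5 of 7 alternative settings, so a lower H3K4me3 density was not established for this block. The H3K4me1 intervals of the 1q44 and 11q24 blocks overlapped narrowly, while that of the 11q11-q12 block (0 to 0.0343) ended below the 11q24 interval.

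A ratio to a chromosome mean can mislead, because peaks were clustered and many stretches held few. Each chromosome was therefore tiled with windows of the length of the block, leaving out windows that touched a block or the longest stretch of the chromosome with no peak. On chromosome 11 that stretch is the one that holds the 11q11-q12 block. Windows wholly inside such a stretch are empty, and leaving them out lowers the shares given below. Of 77 windows of 1.60 Mb on chromosome 11, 7.79% also held no H3K27ac peak, 7.79% no H3K4me3 peak and 1.3% no H3K4me1 peak, so that 1 window matched the 11q11-q12 block in H3K4me1. The median window there held 28 H3K27ac, 96 H3K4me1 and 10 H3K4me3 peaks. Of 173 windows of 1.3 Mb on chromosome 1, the share with no more peaks than the 1q44 block was 4.62% for H3K27ac, 7.51% for H3K4me1 and 19.1% for H3K4me3. Median windows held 31, 91 and 11 peaks. Of 155 windows of 0.800 Mb on chromosome 11, the share with no more peaks than the 11q24 block was 23.9% for H3K27ac, 28.4% for H3K4me1 and 37.4% for H3K4me3. By count, the 11q24 block was thus not unusual for its chromosome, whereas the other 2 blocks were among the emptiest windows for H3K27ac and H3K4me1.

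**Figure D3:**
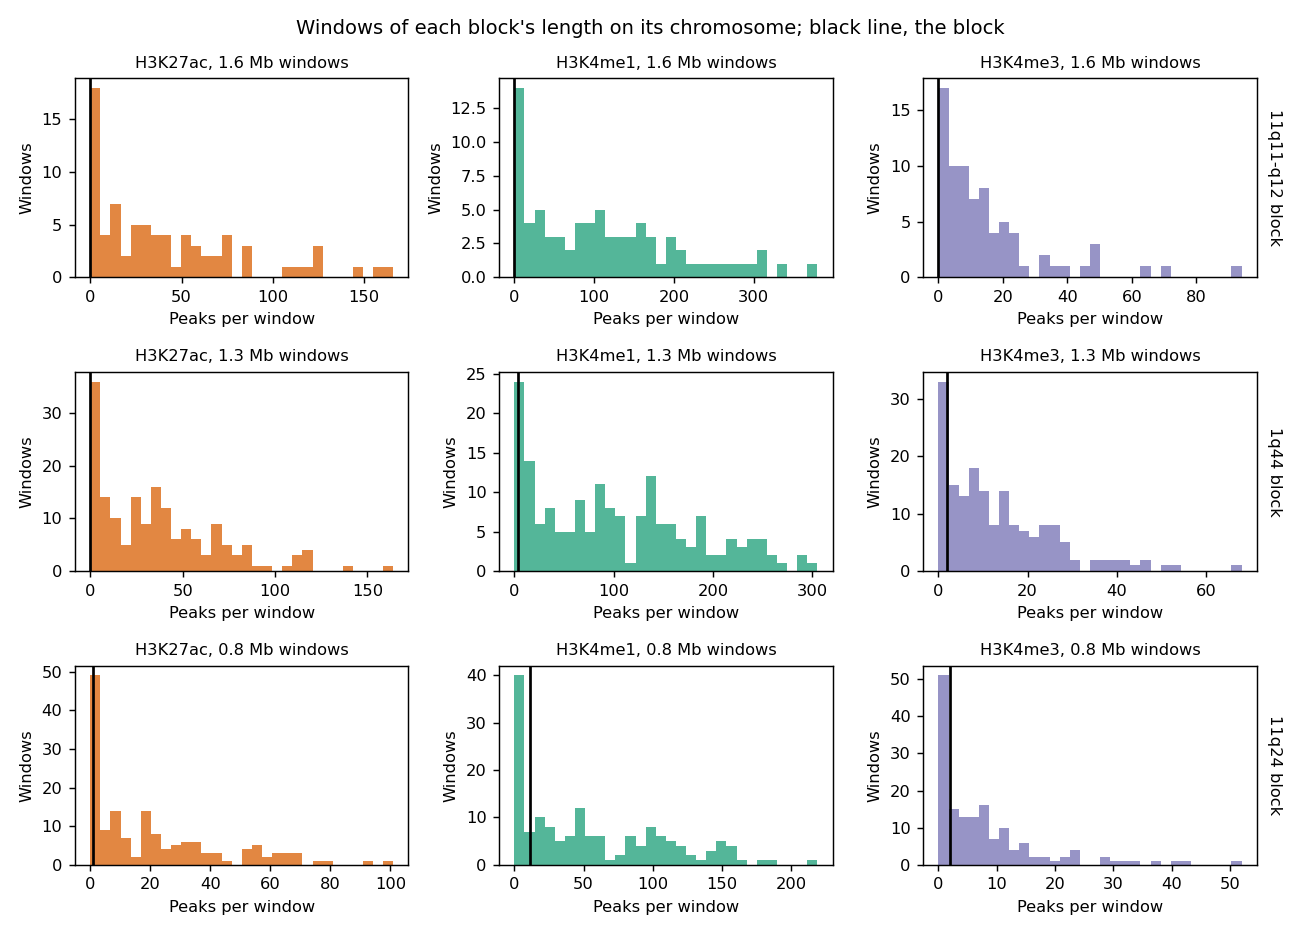
Histograms of peaks per window (horizontal axes) over windows of each block's length on the same chromosome (vertical axes, number of windows), with a row per block and a column per mark. The black line is the block, which stands at 0 in the top row and at 1, 11 and 2 peaks in the bottom row, where 23.9%, 28.4% and 37.4% of windows lie at or below it.

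The 20 members formed 9 sites when peaks within 10 kb were grouped across lists, with 4 sites in the 1q44 block, 5 in the 11q24 block and 0 in the 11q11-q12 block. H3K4me1 alone was present at 5 sites, with 9 of the 15 H3K4me1 peaks. H3K4me3 was present at 4 sites and H3K27ac at 1. Of 37 bins of 100 kb across the blocks, 30 contained no summit. Empty bins were 16 of 16 in the 11q11-q12 block, 10 of 13 in the 1q44 block and 4 of 8 in the 11q24 block. The share of empty bins elsewhere on these chromosomes was not computed, so this count describes spacing only. The authors' signal value is used below to rank peaks within their own list, and its reference level is not given in the sources used here.

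The strongest site lay near the start of the 11q24 block and was the only acetylated one. Its H3K4me3 peak, chr11:123610599-123613353, was 2755 bp wide with a signal value of 45.4, above 79.3% of the H3K4me3 list. The H3K27ac peak, chr11:123611005-123612628, lay wholly inside it, with a signal value of 21.8 that exceeded 89.2% of the H3K27ac list. The summits were 399 bp apart. H3K4me1 peaks overlapped both ends of the H3K4me3 peak, at chr11:123610222-123611332 (signal value 3.78) and chr11:123612863-123613381 (3.39). A weaker H3K4me1 peak lay outside it, at chr11:123609442-123609757 (2.37). Of the 9 sites, this one alone held all 3 marks. Its H3K27ac summit was 12.2 kb inside the block start, and the gene there was not assigned.

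A second H3K4me3 site lay deep inside the 11q24 block, at chr11:123985786-123987120, with its summit 386.4 kb from the start. It was 1335 bp wide with a signal value of 12.2, above 48.9% of its list. H3K4me1 peaks overlapped both of its ends, at chr11:123985535-123985991 (signal value 3.03) and chr11:123986555-123987311 (3.94). No H3K27ac peak was listed there. This was the H3K4me3 member farthest from a block edge, and 0 others lay more than 100 kb inside.

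The remaining sites of the 11q24 block carried H3K4me1 only, in 3 pairs. One pair lay at chr11:123940322-123940884 (signal value 3.62) and chr11:123946513-123947137 (4.07). Another held the strongest H3K4me1 member, chr11:124210903-124211744 (4.45, above 71.9% of the list), beside chr11:124209767-124210263 (2.62). The last pair, chr11:124351724-124352056 (2.91) and chr11:124352328-124352800 (3.31), lay 47.2 kb from the block end.

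In the 1q44 block both H3K4me3 summits lay near the start, at 11.4 and 34.9 kb. The stronger, chr1:247611160-247611672, was 513 bp wide with a signal value of 7.04, above 40.3% of the list, and overlapped neither other mark. The weaker, chr1:247634631-247635417, had a signal value of 2.95, above 20.3% of the list, and shared 22 bp with an H3K4me1 peak at chr1:247635396-247636102 (signal value 3.06). Past it, no peak of any mark was listed for 1.16 Mb, which was 88.9% of the block. The other H3K4me1 peaks were a pair of 297 bp each at chr1:248791440-248791736 and chr1:248794193-248794489, both with a signal value of 2.43, and chr1:248896142-248897648 (4.31), which ended 2.35 kb before the block end.

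**Figure D4:**
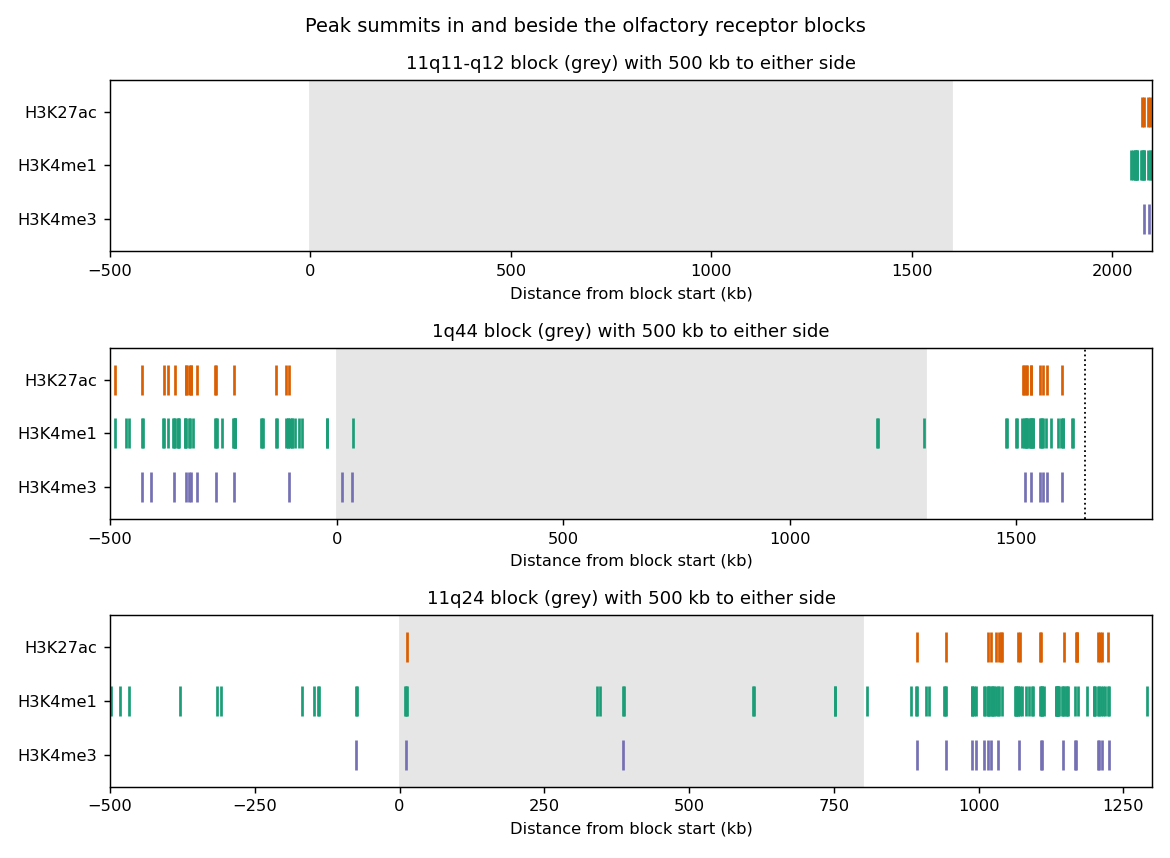
Summits of H3K27ac, H3K4me1 and H3K4me3 peaks (ticks, a row per mark) by distance in kb from the start of each block (horizontal axes), with the block in grey and 500 kb to either side. The 11q11-q12 block is empty, ticks of the 1q44 block lie near its ends, and those of the 11q24 block include 1 H3K27ac summit 12.2 kb inside the start; the dotted line is the end of chromosome 1.

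H3K4me1 members had a median signal close to that of other H3K4me1 peaks of chromosomes 1 and 11, but none was among the strongest. The 15 H3K4me1 members had signal values of 2.37 to 4.45 with a median of 3.31, against 3.51 in the rest (interquartile range 2.80 to 4.80), a log2 difference of -0.08. Of the 15, 6 exceeded the median of the rest and 0 its upper quartile. Their −log10 q-values reached 12.6, and 0 of 15 exceeded the upper quartile of the rest, 16.9. Their median width was 519 bp against 704 bp, and 10 of 15 had a −log10 q-value of at least 5, against 68.3% of the rest. The 4 H3K4me3 members had signal values of 2.95, 7.04, 12.2 and 45.4, with a median of 9.64 against 14.9. Only the highest exceeded the median of the rest. H3K27ac overlapped 1 of 4 H3K4me3 members (95% Wilson interval 4.56% to 69.9%), and 79.9% (78.6 to 81.2) of H3K4me3 peaks elsewhere on these chromosomes. H3K27ac overlapped 1 of 15 H3K4me1 members (6.67%, 1.19 to 29.8), against 33.1% (32.6 to 33.7) elsewhere. H3K4me1 members that overlapped neither other mark numbered 10 of 15 (66.7%, 41.7 to 84.8), close to the 62.0% (61.4 to 62.6) elsewhere. Because the blocks held 1 H3K27ac peak, only members touching that peak could overlap the mark. The low shares with H3K27ac thus largely restate its count and are not a separate property of the members. With so few members these shares are imprecise, and peaks at 1 site are not independent.

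The surroundings of the blocks differed. In the 500 kb before the 11q11-q12 block 0 peaks were listed, and in the 500 kb past it 4 H3K27ac, 15 H3K4me1 and 2 H3K4me3 peaks. The nearest peak past its end was an H3K4me1 peak 445.3 kb away, and the nearest before its start was an H3K4me1 peak 5.74 Mb away. The block lay inside the longest stretch of chromosome 11 with no peak, chr11:49255558-57045250, of 7.79 Mb. That stretch includes the centromere, and 700 kb of the block itself fall in a centromeric band. The lack of listed peaks in this block and its place beside the centromere cannot be told apart. How well reads can be placed in the blocks was not examined, so a lack of listed peaks is not a measured absence of a mark.

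The 1q44 block had marked flanks on both sides. The 500 kb before it held 17 H3K27ac, 45 H3K4me1 and 10 H3K4me3 peaks, or 34.0, 90.0 and 20.0 per Mb. The 351 kb from its end to the end of the chromosome held 10, 28 and 6. No H3K27ac peak was listed from 103.5 kb before the block to 214.4 kb past it, a stretch of 1.62 Mb. Bounding H3K27ac peaks had signal values of 34.0 and 4.19. The nearest H3K4me1 peak before the start was 20.2 kb away with a signal value of 2.41, and the member just inside the end was 2.35 kb from it with 4.31.

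Next to the 11q24 block, peaks were dense past its end and sparse before its start. The 500 kb past it held 20 H3K27ac, 69 H3K4me1 and 18 H3K4me3 peaks, or 40.0, 138.0 and 36.0 per Mb. In the 500 kb before it there were 0, 12 and 1. The nearest H3K27ac peak before the start was 644.9 kb away, and past the end it was 92.1 kb away with a signal value of 25.1. At the far edge the nearest H3K4me1 peak past the end was 5.99 kb away and the member nearest inside was 47.2 kb away.

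Stretches of at least 500 kb between neighbouring H3K27ac peaks were used to ask whether the blocks differ from other unacetylated chromatin. Such stretches made up 99.96% of the blocks and 42.3% of chromosomes 1 and 11. Outside the blocks and the centromeric bands, these chromosomes had 115 such stretches, with a median of 10.5 H3K4me1 peaks per Mb (interquartile range 5.05 to 17.7) and 1.42 H3K4me3 peaks per Mb (0.760 to 2.74). A stretch ends at H3K27ac peaks and counts marks that cross its ends, whereas a block has fixed edges and may hold an acetylated site. Block values and ranges are therefore not fully like measures. Counted within the block edges, the 11q24 block, at 13.8 and 2.50 with its acetylated site included, was within both ranges. The 1q44 block, at 3.08 H3K4me1 peaks per Mb, was below the first range and, at 1.54 H3K4me3 peaks per Mb, within the second. The 11q11-q12 block, at 0, was below both. Its own stretch touches a centromeric band, and stretches of that kind were left out of the 115, so it was not ranked among its like. No H3K4me1 peak was listed in 3 of the 115 stretches and no H3K4me3 peak in 19. Measured over its whole unacetylated stretch of 1.62 Mb, flanks included, the 1q44 region had 17 H3K4me1 and 3 H3K4me3 peaks, or 10.5 and 1.85 per Mb, both within the ranges. The low H3K4me1 value there thus held for the block as set and not for the stretch around it. The 11q11-q12 stretch of 9.06 Mb had 2.32 H3K4me1 peaks and 0 H3K4me3 peaks per Mb of its full length, centromere included. How much of that length could hold a peak was not measured. Of the stretches at 11q24, the one of 0.880 Mb that covers 98.4% of the block had 13.6 H3K4me1 and 3.41 H3K4me3 peaks per Mb, the latter above the range. Its H3K4me3 count includes chr11:123610599-123613353 and chr11:124491979-124494255, which cross its ends and have their summits outside it. The stretch of 0.656 Mb that ends just inside the block start had 29.0 and 4.57, both above the ranges. Its H3K4me3 count also includes chr11:123610599-123613353.

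Clustered protocadherins, cell adhesion genes of neurons, and the zinc finger genes of 19p12, many of which encode repressors of transposable elements, are tandem families too. The boundaries used for both were rounded and taken from general knowledge. The protocadherin cluster had 15.0 H3K27ac, 28.8 H3K4me1 and 32.5 H3K4me3 peaks per Mb over 0.800 Mb. Relative to the rest of chromosome 5, its ratios were 0.901 (95% exact interval 0.465 to 1.58) for H3K27ac, 0.588 (0.373 to 0.883) for H3K4me1 and 5.38 (3.50 to 7.92) for H3K4me3. Those of the 3 olfactory receptor blocks together were 0.0106 (0.000270 to 0.0593), 0.0578 (0.0323 to 0.0953) and 0.114 (0.0310 to 0.292). The 19p12 genes had 11.3, 19.5 and 8.25 peaks per Mb over 4.00 Mb, and ratios to the rest of chromosome 19 of 0.189 (0.138 to 0.254), 0.146 (0.115 to 0.182) and 0.283 (0.194 to 0.399). The H3K27ac and H3K4me1 intervals of the 19p12 genes lay above those of the 3 olfactory receptor blocks pooled, and the H3K4me3 intervals overlapped. For the 11q24 block alone, the ratio intervals overlapped those of the 19p12 genes for each mark, and its H3K4me1 ratio was the higher, at 0.204. The references are unlike. The rest of chromosome 19 had 59.5, 134 and 29.2 peaks per Mb, and the rest of chromosome 11 had 24.8, 67.3 and 9.15. By density the 11q24 block was below the 19p12 genes for each mark, at 1.25, 13.8 and 2.50 peaks per Mb. The density intervals were apart for H3K27ac (0.0316 to 6.96 against 8.21 to 15.1) and overlapped for the other marks.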

How the data were processed

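HepG2 histone ChIP-seq was analysed from 3 peak lists, each pooling the replicates of a mark going by its name. MACS2 and hg19 (GRCh37) are named in the submitters' processing notes, and the aligner, threshold and use of the control are not given in the sources used here. The authors deposited a signal value, the −log10 p-value and the −log10 q-value of each peak, and a score that was not used. Peaks ended past the end of 0 of 23 chromosomes of hg19 (lengths from GenomeInfoDb 1.38.1, bands from circlize 0.4.16).

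Peaks were counted per Mb of block and of the rest of the same chromosomes. Ratios have exact conditional binomial intervals and shares Wilson intervals (95%, scipy 1.17.1, Python 3.11.15), for counting error only. No p-value was computed. The counting was checked on simulated peaks. Alternatives were a stricter q-value, stronger peaks, summits, joined peaks, other references, trimmed edges and covered bases. A planned assignment of peaks to genes was not run, for want of a GRCh37 annotation. Upstream sequences came from RefSeq (GRCh38.p14) by symbol, 1 per gene, and identity was computed with edlib 1.3.9.post1. The rule for naming took every H3K27ac and H3K4me3 member and the 3 strongest H3K4me1 members per block, and the remaining members were added after their values were seen, so all 20 are given. The members and lists were chosen with earlier results of these data known.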

Additional observations from a re-analysis of the deposited data

How the results depend on the processing

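Of 110 alternative values for 17 results, 101 stayed within the 95% interval of the value reported (for median signal, an order-statistic interval or, with few members, their range), 9 moved outside it and 0 reversed. All 96 alternative density ratios were below 1. Those that started from 0 peaks, the 11q11-q12 ratios and the H3K27ac ratio of 1q44, could not rise under any of these settings. Counting by summit gave the same density ratios as counting by overlap. Such values add to the counts of unchanged results without being a check on them. The interval of the H3K4me3 ratio of 11q24 reached past 1 under 5 of the 7 alternatives that give one, and 0 intervals of the other ratios did. With 100 kb taken off both sides of each block, the H3K27ac ratio was 0 for the 3 blocks together and for 11q24, and the H3K4me3 ratio of 1q44 was 0, as it was with the stronger 50% of each list. These zeros follow from the place or rank of 1 or 2 peaks, and the median log2 signal difference of H3K27ac had no value with trimmed edges. With at least 50% of an H3K4me1 region covered by H3K27ac, the share was 0% in the blocks, which held 1 H3K27ac peak, and 20.4% in the rest. The share in the rest was 39.2% with −log10 q-values of 5 or more and 36.7% with peaks joined, against 33.1%. With the stricter q-value the log2 signal difference of H3K27ac was 2.26, against 2.78, and rests on 1 member. No paired analysis was possible because the lists pool the replicates, and for the same reason no replicate could be left out.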

Other observations

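The 2 narrow H3K4me1 peaks of the 1q44 block, 2456 bp apart, had identical values, with a signal value of 2.43, a −log10 p-value of 3.50 and a q-value of 0.00638. The same signal and p-value occurred together in 845 peaks of the list, and 297 bp was the narrowest width in it, shared by 5769 peaks. Each other H3K4me1 member also had values that occurred in at least 2 peaks of the list, and in 168 for chr11:124209767-124210263, whereas the H3K27ac member and 3 of the 4 H3K4me3 members had values of their own.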
